A study of Mus musculus with 2 samples.

Results

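T cell receptor complex genes were the subject of this comparison: 7 genes, Cd3d, Cd3e, Cd3g, Cd247, Trac, Trbc1 and Trbc2, of the 19465 genes in the deposited matrices, chosen by name as the CD3 chains and the constant regions of the alpha and beta receptor chains. All 7 gave unique molecular identifiers (UMIs, each one captured probe molecule) in both sections. The data are 2 Visium CytAssist libraries. In this assay, paired probes that find their transcript in the fixed section are joined, then moved onto a grid of barcoded spots. A spot is a small region that can hold several cells. The KO section came from a Foxp3-Cre × CK2b-fl/fl mouse, in which Cre made by Foxp3-expressing regulatory T cells deletes Csnk2b, the gene of the CK2 beta subunit. The WT section came from a mouse whose genotype is labelled wild-type and whose title is Csnk2bfl/fl, that is, floxed Csnk2b with no Cre named. Both hosts were 8 to 16 weeks old and untreated, and carried a B16.F10 melanoma, a transplanted pigmented mouse line with intact Csnk2b. The tumours were removed on day 15, and sections of 10 µm were cut from paraffin blocks.

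With 1 section per genotype, no difference between genotypes could be tested. Intervals are 95% intervals that cover counting error only, and quadrants, made by splitting each section at its median spot row and column, show the spread within a section. The KO section held 2746 spots under tissue and 94422680 UMIs, and the WT section 3066 spots and 88735936 UMIs. Levels are given as CPM, a gene's UMIs scaled to the section's total. The 10 melanocytic genes, markers of the labelled tissue, summed to 48565 CPM in KO and 42175 CPM in WT tissue, and none was at 0. Csnk2b stood at 391.5 CPM in KO and 392.3 CPM in WT tissue, which does not check a deletion limited to regulatory T cells. Skeletal muscle genes summed to 289 CPM in KO and 51.8 CPM in WT tissue, and collagen stroma genes to 1498 CPM in KO and 12670 CPM in WT tissue. Y-linked genes were detected with 1477 UMIs in KO and 0 in WT tissue. Genotype, mouse, capture area and tissue sampled cannot be told apart in this design.

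The alpha and beta chains of the receptor bind peptide on MHC molecules but have almost no cytoplasmic part. The signal enters the cell through the CD3 gamma, delta and epsilon chains and the zeta chain encoded by Cd247, whose tyrosines are phosphorylated by Lck and then hold Zap70. In tumours, the CD3 transcripts mark the places that T cells have reached. Those of Trac, Trbc1 and Trbc2 mark T cells whose receptor has alpha and beta chains. Cd247 is also made by NK cells, where zeta pairs with other receptors. Fewer T cells and less receptor RNA per T cell cannot be told apart from summed spots.

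Cd3g, Cd3d and Cd3e are neighbours on mouse chromosome 9 (GRCm38), at 44969572 to 44980431, 44981769 to 44987052 and 44998735 to 45009663. Their RefSeq promoter windows (GRCm38.p6, 250 bases before to 50 after a transcript start that the table takes, given on the gene's strand) are shown because these neighbours had KO over WT ratios with overlapping intervals. Capitals mark CACCTG on either strand, a form of the E-box CANNTG that basic helix-loop-helix factors such as the E proteins of lymphocytes bind.
Cd3d, chr9:44981536-44981835, + strand: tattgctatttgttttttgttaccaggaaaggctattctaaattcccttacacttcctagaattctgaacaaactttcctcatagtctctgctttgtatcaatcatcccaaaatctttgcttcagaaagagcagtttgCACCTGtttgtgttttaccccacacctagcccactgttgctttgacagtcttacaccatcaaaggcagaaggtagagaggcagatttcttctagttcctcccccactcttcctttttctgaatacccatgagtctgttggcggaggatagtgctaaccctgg
Cd3g, chr9:44980382-44980681, - strand: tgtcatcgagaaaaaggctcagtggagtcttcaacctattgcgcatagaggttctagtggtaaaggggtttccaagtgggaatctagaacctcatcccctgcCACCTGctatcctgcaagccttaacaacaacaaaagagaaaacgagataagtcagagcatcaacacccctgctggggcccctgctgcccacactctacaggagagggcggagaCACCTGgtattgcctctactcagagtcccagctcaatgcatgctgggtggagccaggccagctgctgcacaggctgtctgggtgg
Cd3e, chr9:45009562-45009861, - strand: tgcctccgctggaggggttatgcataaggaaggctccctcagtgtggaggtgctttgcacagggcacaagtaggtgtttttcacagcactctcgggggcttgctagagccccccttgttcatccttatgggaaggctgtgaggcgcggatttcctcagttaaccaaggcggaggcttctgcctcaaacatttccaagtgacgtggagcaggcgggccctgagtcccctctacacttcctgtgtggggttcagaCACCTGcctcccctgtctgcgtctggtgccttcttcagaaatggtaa
CACCTG was in the windows of Cd3d, Cd3g, Cd3e and Cd247, 4 of 4 members with a window in the table, against 20.2% of all 32851 promoter windows. The start behind the Cd3g window is the outer bound of the gene as placed above, those of Cd3d and Cd3e lie slightly inside theirs, and the window of Cd247 (chromosome 1, 165788431 to 165788730) lies wholly inside the gene. The motif ACTTCCT, of ETS type, searched on both strands like the others, was in 3 of 4 members' windows and 9.35% of all windows. The motif AGATAA, of GATA type, was in 1 of 4 and 11.2%. The motif TGTGGT, of RUNX type, was in 0 of 4 and 16.8%. The motifs were chosen after the sequences had been read, and a match does not show binding.

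All 7 receptor complex genes were at a higher level in the KO than in the WT section, each by 2-fold or more. Together they gave 5466 UMIs, or 57.9 CPM, in KO and 1813 UMIs, or 20.4 CPM, in WT tissue, a 2.83-fold difference (2.69 to 2.99). Of the 16961 genes with at least 50 UMIs over both sections, 14.7% reached 2-fold higher and 4.85% 2-fold lower in KO tissue, and the median log2 ratio over all of them was 0.15. The median over the 7 members was 1.73. Of 12 measured off-tissue genes, which mark probe background, 7 also reached 2-fold higher in KO tissue and their median log2 ratio was 1.06, so a 2-fold call on a gene as scarce as Cd247 is not told apart from background. With edgeR's TMM factors, which lower every log2 ratio by a shift of -0.22, Trbc2 stood at 1.815 and the other 6 stayed at 2-fold or more. In interior spots alone Trac, Trbc2 and Cd247 stood at 1.77, 1.56 and 1.48.

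Among the CD3 chains, Cd3e, the chain that pairs with both gamma and delta, had 956 UMIs in KO and 248 in WT tissue, a ratio of levels of 3.62 (3.15 to 4.18). Cd3d, the delta chain, had 829 UMIs in KO and 235 in WT tissue (3.32, 2.86 to 3.85), and Cd3g, the gamma chain, had 764 in KO and 216 in WT tissue (3.32, 2.85 to 3.88). The 3 intervals overlap, so these 3 chains were not told apart at this depth. Cd247 (chromosome 1, 165779952 to 165871153) was scarce, with 82 UMIs in KO and 29 in WT tissue (2.66, 1.72 to 4.21). Both counts lay under 2 times the probe background, a median of 49 UMIs in KO and 19 in WT tissue over 15 genes that neither tumour nor immune cells should make.

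The receptor constant regions spread more widely. Trac, the alpha constant region (chromosome 14, 54220521 to 54224198), had 1023 UMIs in KO and 384 in WT tissue (2.504, 2.22 to 2.82). Trbc1 (chromosome 6, 41538219 to 41539665) had the highest ratio of the 7, with 469 UMIs in KO and 103 in WT tissue (4.28, 3.45 to 5.35). Trbc2 (chromosome 6, 41546730 to 41548181) had the lowest, with 1343 UMIs in KO and 598 in WT tissue (2.11, 1.92 to 2.33).

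Trbc1 and Trbc2 are alternative constant regions of the beta chain, and a rearranged beta gene uses one or the other. Trbc1 held 25.9% of the UMIs of the pair in the KO section (23.9 to 28.0, exact binomial) and 14.7% in the WT section (12.2 to 17.5). The 4 KO quadrants lay between 25.0% and 27.7%, and the 4 WT quadrants between 7.41% and 19.0%, without overlap of these values. The counting intervals of the lowest KO quadrant (20.9 to 29.5) and the highest WT quadrant (13.8 to 25.1) do overlap. The lowest WT quadrant rests on 6 Trbc1 UMIs of 81 of the pair, and quadrants are not replicates. With the probe background taken off both genes, a setting added after the data were seen, the shares were 24.5% in KO and 12.7% in WT tissue. In stroma-rich spots, defined below by collagen content, the shares were 25.7% (19.9 to 32.3) in the KO and 17.6% (13.9 to 21.8) in the WT section, whose intervals overlap. In melanoma-dense spots they were 27.5% (23.8 to 31.3) in the KO and 11.5% (6.84 to 17.8) in the WT section, and in remaining tissue 25.2% (22.5 to 28.1) and 10.98% (6.74 to 16.6), without overlap. The constant regions are nearly identical in sequence, so how the probes divide them is uncertain.

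Within each section the complex was unevenly spread. The KO quadrants held 27.8, 40.4, 50.5 and 107 CPM of the summed complex and the WT quadrants 9.51, 9.74, 33.0 and 44.5 CPM. The quadrants overlapped, also for each of the 7 members alone: the highest WT quadrant lay above the lowest KO quadrant. The spread between quadrants of 1 section was wider than the difference between sections.

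**Figure D1:**
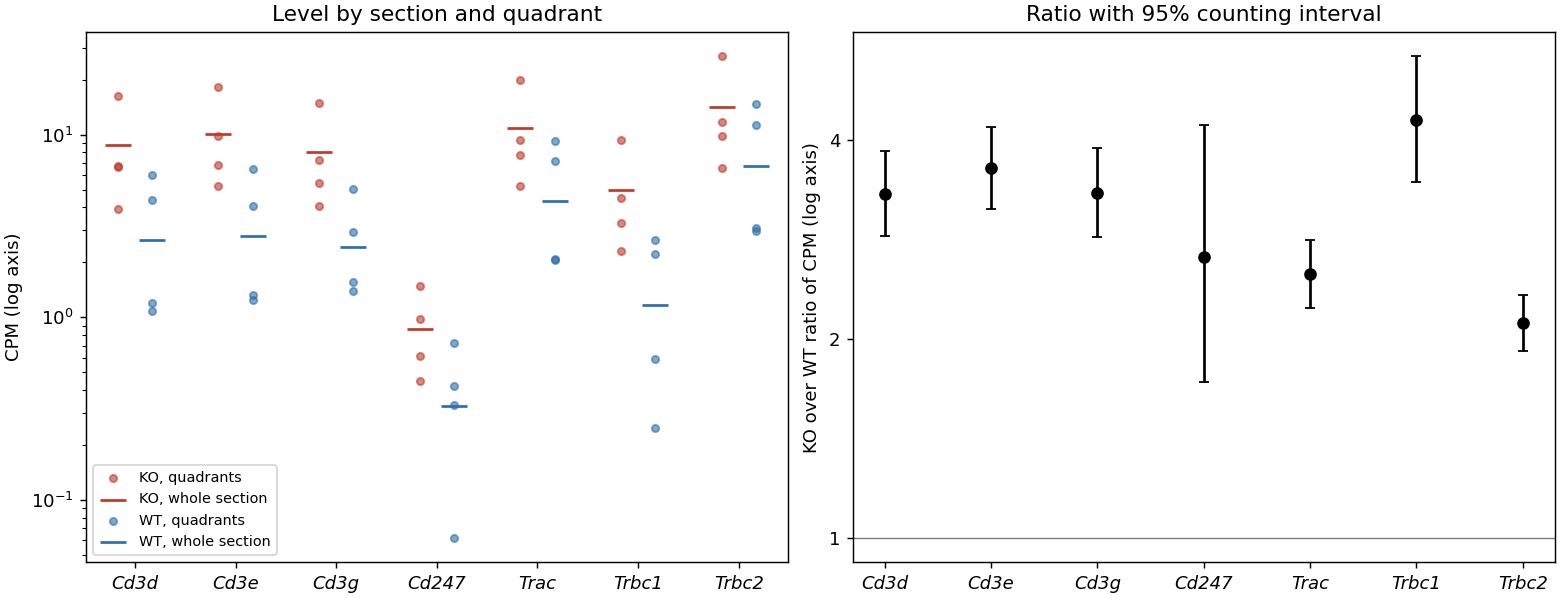
Left, CPM (log axis) of each receptor complex gene in the KO and WT sections, with dots for the 4 quadrants and bars for the whole section. Right, KO over WT ratio (log axis) with its 95% counting interval. Ratios run from 2.11 for Trbc2 to 4.28 for Trbc1, while quadrants of both sections overlap for every member.

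**Figure D2:**
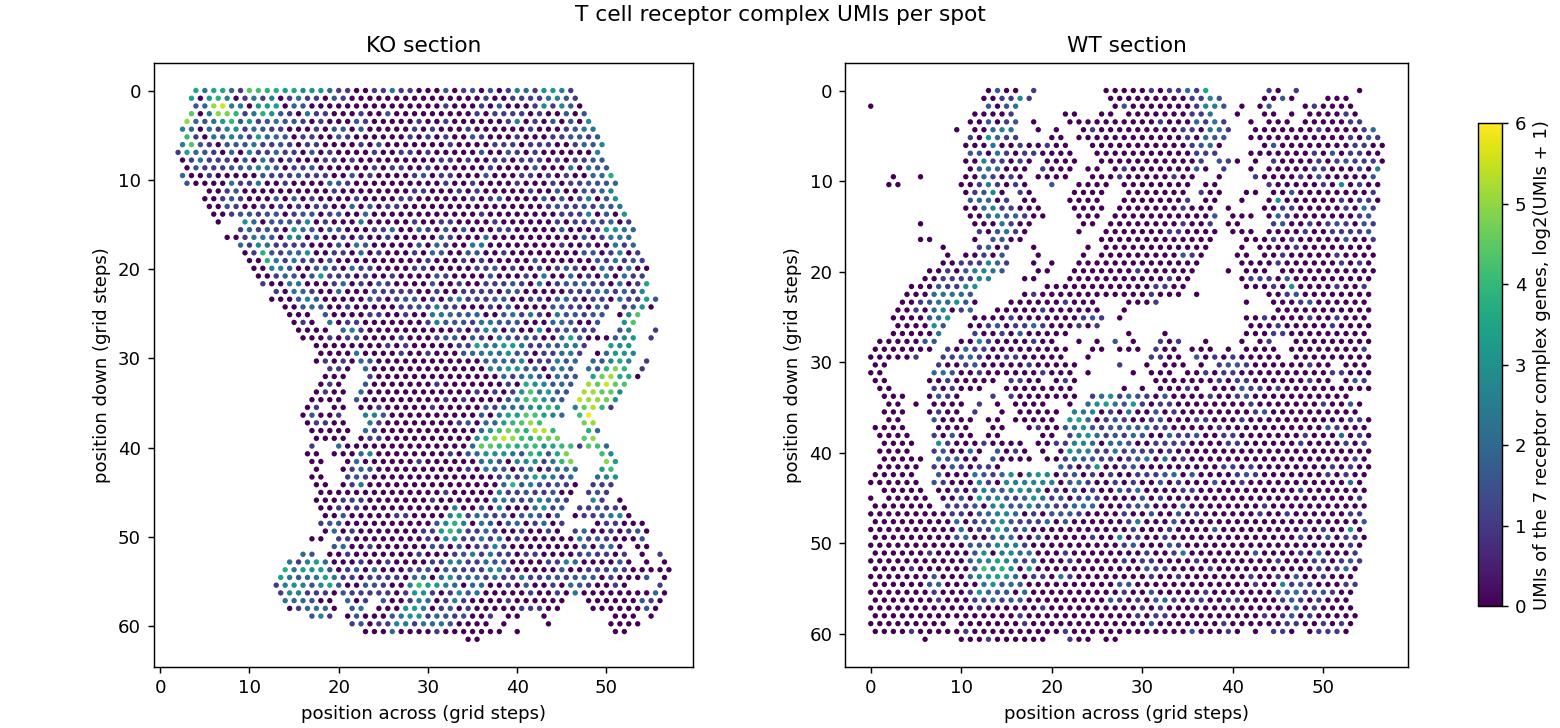
UMIs summed over the 7 receptor complex genes in each spot, on a log2(UMIs + 1) colour scale, with spots at their place on the capture grid (axes in grid steps). The KO section has a bright patch beside a cleft in its lower right part and a smaller one at its upper left corner, and its brightest spot holds 63 UMIs. The WT section has patches in its left part and a highest spot of 17 UMIs.

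Distance from the tissue edge was counted in steps on the hexagonal grid to the nearest position without tissue or to the frame of the capture area. In the KO section the summed complex was lower in each bin inward. It stood at 116 CPM (111 to 120) in the outermost 2 steps, 67.0 at 3 to 4 steps, 42.5 at 5 to 8, 26.5 at 9 to 12 and 17.3 (15.0 to 19.9) beyond 12 steps. In the WT section the levels over the same distances were 22.4 (20.9 to 24.1), 18.8, 21.8, 17.7 and 8.58 CPM (5.495 to 12.8), with no steady order over the first 4 bins and the lowest value in the last, which holds 24 UMIs in 85 spots. The KO over WT ratio was 5.15 (4.75 to 5.601) in the outermost bin, 3.57 at 3 to 4 steps, 1.95 at 5 to 8, 1.496 (1.26 to 1.78) at 9 to 12 and 2.02 (1.32 to 3.23) beyond 12 steps.

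Rim spots, those within 2 steps of an edge, held 2.84 times the level of interior spots in the KO section (2.694 to 2.998) and 1.17 times in the WT section (1.06 to 1.28). The WT ratio became 0.994 with a rim of 1 step, so no rim excess was settled there. Whether the sections differ in this ratio was not tested. All 7 members reached 2-fold higher in the KO rim, from 2.56 for Cd3e to 4.09 for Cd247, where 9.1% of 14985 genes with at least 50 UMIs were. In the WT section 0 of the 6 members with 50 UMIs were, and 1.29% of 12948 genes; the members' ratios ran from 0.875 for Cd247 to 1.45 for Trbc1.

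Tissue type was set per spot from lists that do not contain the receptor genes. Muscle-rich spots had at least 2% of their UMIs from 14 skeletal muscle genes, and stroma-rich spots at least 2% from 11 collagen stroma genes. Melanoma-dense spots were those of the rest at or above the median melanocytic share over both sections, and what was left is called remaining tissue. The KO section had 41 muscle-rich, 213 stroma-rich, 1610 melanoma-dense and 882 remaining spots, and the WT section 7, 961, 1285 and 813.

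In both sections the complex was lowest in melanoma-dense tissue and higher in stroma. In the KO section it stood at 705 CPM (619 to 800) in muscle-rich, 333 (306 to 361) in stroma-rich, 123 (118 to 128) in remaining and 26.8 CPM (25.6 to 28.0) in melanoma-dense spots. In the WT section it stood at 69.6 CPM (65.2 to 74.3) in stroma-rich, 18.5 (16.8 to 20.2) in remaining and 8.57 CPM (7.78 to 9.41) in melanoma-dense spots. The 7 muscle-rich WT spots gave 0 of 51009 UMIs, which allows up to 58.8 CPM if 3 counts are taken as the limit, and 72.3 CPM as the exact upper bound. Stroma-rich over melanoma-dense ratios were 12.4 in the KO section (11.3 to 13.7) and 8.12 in the WT section (7.24 to 9.13), and the muscle-rich over melanoma-dense ratio of the KO section was 26.4 (23.0 to 30.2). With the tissue threshold at 4% the stroma-rich ratio was 4.88 in the KO and 8.34 in the WT section, so which section has the higher ratio turns with the threshold.

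Every member kept this order between stroma-rich and melanoma-dense spots. The ratio ran from 10.5 for Cd3g to 14.9 for Trbc2 in the KO section, where 23.4% of genes reached 2-fold higher in stroma. It ran from 4.87 for Cd247 to 15.1 for Trbc1 in the WT section, where 22.7% of genes were. In muscle-rich KO spots, Trac reached 164 CPM against 5.23 CPM in melanoma-dense spots, and Cd3g 70.3 against 4.14 CPM, where 33.6% of genes reached 2-fold higher. Macrophage genes were also lowest in melanoma-dense spots, but highest in stroma-rich ones: their sum was 6252, 11817, 1126 and 219 CPM in muscle-rich, stroma-rich, remaining and melanoma-dense KO spots. It was 3954, 753 and 343 CPM in stroma-rich, remaining and melanoma-dense WT spots. Haemoglobin and other erythroid genes summed to 30758 CPM in muscle-rich and 1236 CPM in melanoma-dense KO spots. The part of these cells in the receptor gene pattern was not tested. Muscle-rich and stroma-rich spots were also shallow. Medians were 7554, 6838 and 42910 UMIs per spot in muscle-rich, stroma-rich and melanoma-dense KO spots. They were 11916 and 36196 in stroma-rich and melanoma-dense WT spots.

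Stroma-rich spots were 7.76% of KO and 31.3% of WT spots. The 2 sections also placed their receptor UMIs differently, and the part of the tissue mix in this was not tested. Stroma-rich spots held 10.6% of the complex UMIs in KO and 50.9% in WT tissue. Melanoma-dense spots held 34.1% in the KO and 24.0% in the WT section, and remaining tissue 50.8% and 25.1%. Of the UMIs of all genes, melanoma-dense spots held 73.9% in the KO and 57.2% in the WT section. Remaining tissue held 23.9% and 27.8% of them, and stroma-rich spots 1.85% and 14.9%. Within one tissue type the KO level was higher each time: 4.78-fold in stroma-rich (4.30 to 5.31), 6.66-fold in remaining (6.03 to 7.37) and 3.12-fold in melanoma-dense spots (2.81 to 3.47). When WT levels were weighted to the KO mix of tissue types, a setting added after the data were seen, the overall ratio was 4.79 in place of 2.83.

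Distance and tissue type were linked, since 78.9% of KO and 54.6% of WT stroma-rich spots lay in the rim. Within melanoma-dense spots alone the KO level still declined inward, with 39.7, 31.9, 27.4, 21.4 and 17.4 CPM in the 5 bins from the edge. Rim over interior was 1.61 there in the KO section (1.44 to 1.80) and 1.503 in the WT section (1.24 to 1.82), and these intervals overlap. Within stroma-rich spots the KO rim was lower than the KO interior, with 247 CPM in 168 rim spots and 551 CPM in 45 interior spots (0.448, 0.379 to 0.529). The WT stroma-rich spots had 65.7 CPM in the rim and 73.5 CPM in the interior (0.894, 0.784 to 1.02).

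**Figure D3:**
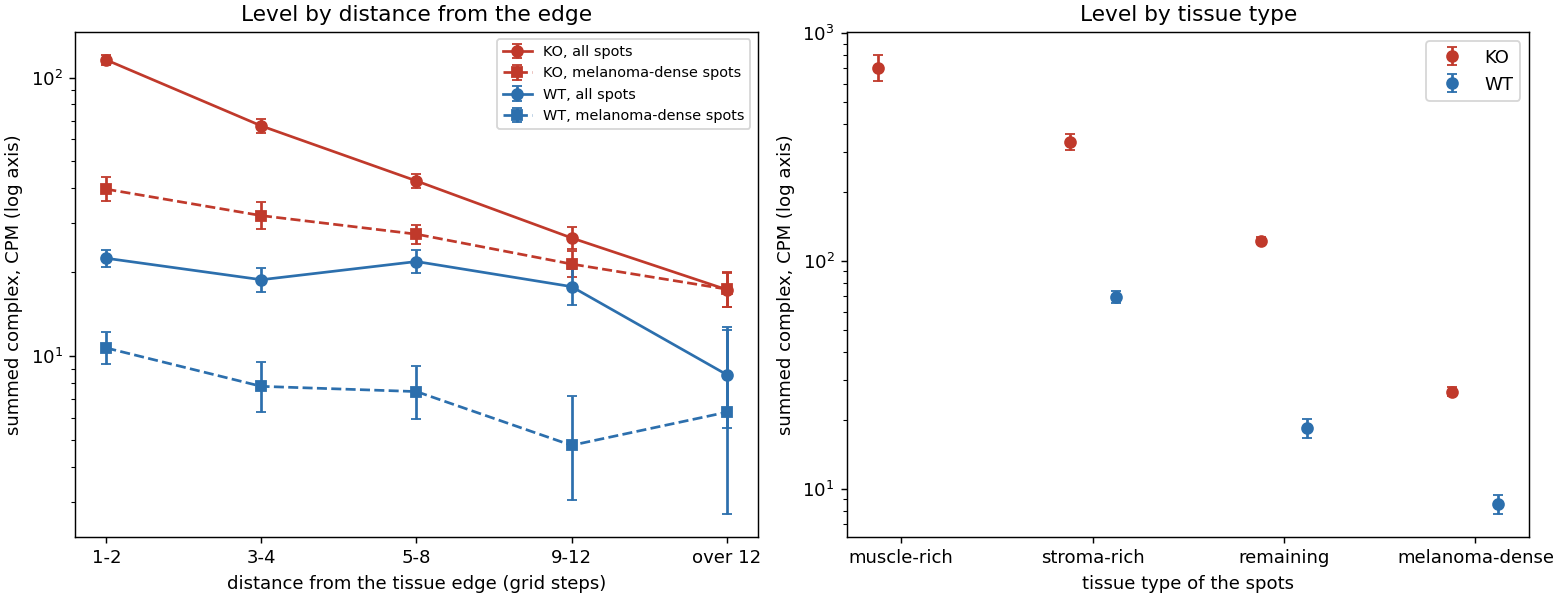
Summed receptor complex CPM (log axes) with 95% counting intervals, by distance from the tissue edge in grid steps (left, all spots and melanoma-dense spots) and by tissue type (right, types of at least 20 spots). KO levels run from 116 CPM at the edge to 17.3 CPM beyond 12 steps, while WT levels lie between 17.7 and 22.4 CPM until the last bin. In each tissue type shown for both, the KO point lies above the WT point.

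For spot counts, spots were thinned at random to 10000 UMIs so that depth was equal, and shallower spots were left out: 574 in the KO and 625 in the WT section. A spot was called positive with at least 1 UMI of the complex. By this count 574 of 2172 KO spots were positive, 26.4% (24.6 to 28.3), and 382 of 2441 WT spots, 15.6% (14.2 to 17.2). Without thinning the shares were 50.04% in the KO and 27.7% in the WT section. Single genes of the off-tissue list were found in a median of 0.46% of KO and 0.246% of WT spots.

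Trbc2 was the member found in most spots, 9.81% of KO (8.59 to 11.1) and 7.05% of WT spots (6.06 to 8.13). Cd3e was in 8.70% of KO and 2.87% of WT spots, Trac in 8.61% and 4.51%, Cd3g in 7.41% and 2.34%, Cd3d in 6.68% and 2.62%, and Trbc1 in 5.16% and 1.23%. The intervals of KO and WT shares did not overlap for any of these 6, and no share over all genes was computed for this. The off-tissue gene Pnlip had no overlap either, at 0.599% of KO (0.319 to 1.02) and 0.0819% of WT spots (0.00992 to 0.296). Cd247 was in 0.645% of KO and 0.41% of WT spots, within the range of the off-tissue genes. The off-tissue gene Gh, at 1.97% of WT spots, exceeded the WT share of Trbc1, so single-gene shares of that size cannot be told from background.

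By tissue type, positive spots made up 67.4% of 46 kept stroma-rich KO spots (52.0 to 80.5) and 33.3% of 553 such WT spots (29.4 to 37.4). They made up 43.7% of remaining KO spots and 15.8% of remaining WT spots. In melanoma-dense tissue they were 18.8% of 1574 KO spots (16.9 to 20.8) and 7.80% of 1256 WT spots (6.38 to 9.43). All 10 kept muscle-rich KO spots were positive. Counted the other way, 51.6% of positive KO spots and 25.7% of positive WT spots were melanoma-dense, while 5.40% and 48.2% were stroma-rich. Of all kept spots, 72.5% in the KO and 51.5% in the WT section were melanoma-dense, and 2.12% and 22.7% stroma-rich. The thinning removed most of the shallow stroma-rich KO spots, so the 5.40% describes deeper spots only.

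Members were found together more often than their separate shares would give. Cd3e and Trac shared 74 KO spots, where the product of their shares gives 16.3, and 11 WT spots, where it gives 3.15. Over the 15 pairs without Cd247, the count stood at 3.93 to 5.54 times the product in the KO section and 1.49 to 6.24 times in the WT section. The lowest WT pair was Cd3g with Trbc2, at 6 spots against 4.02. In the KO section 26 spots had 5 of the genes, 16 had 6 and 3 had all 7, while in the WT section 1 spot had 5 and none had more.

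**Figure D4:**
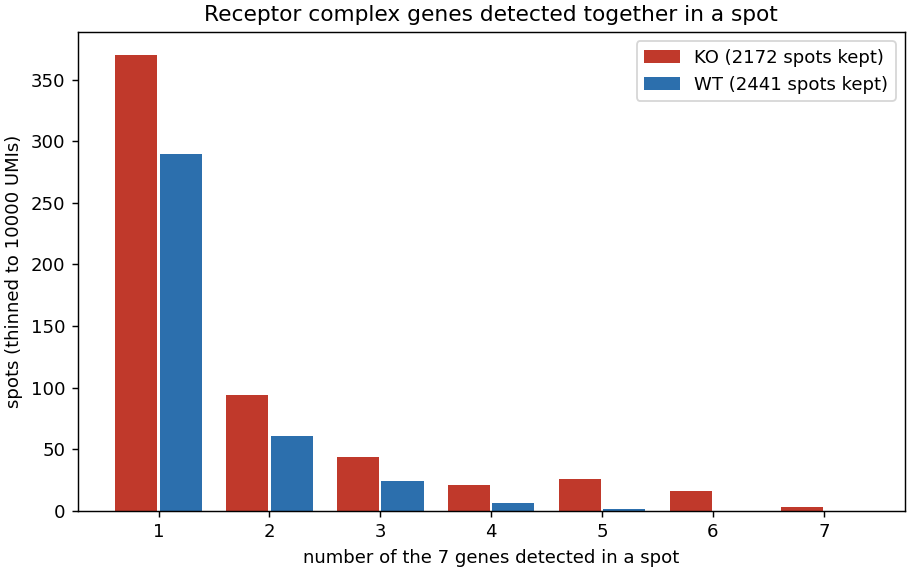
Number of spots (vertical axis, thinned to 10000 UMIs) in which 1 to 7 of the receptor complex genes were detected, for the KO section (2172 spots) and the WT section (2441 spots). Most positive spots held 1 gene, 370 in the KO and 290 in the WT section, and spots with 6 or 7 genes were found in the KO section only.

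Positive spots lay next to each other. Of all neighbours of positive spots, 42.3% were positive in the KO section (40.6 to 44.1) and 34.5% in the WT section (32.4 to 36.6), which is 1.602 and 2.202 times the share of positive spots in each. Of the neighbours of other spots, 19.4% were positive in the KO and 11.98% in the WT section. Pairs of neighbours share spots, so these intervals are too narrow.

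Positive spots formed 163 connected groups in KO and 148 in WT tissue. The largest held 75 KO and 70 WT spots, and 83 KO and 105 WT spots stood alone, 14.5% and 27.5% of the positive spots. Another random thinning gave a largest group of 116 KO and 66 WT spots, and without thinning it held 783 KO and 280 WT spots, so the size of the largest group follows the definition. Groups of 10 or more held 47.7% of positive KO spots and 41.9% of positive WT spots.

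The largest groups differed in tissue. In the KO section, the group of 75 spots held 61 remaining, 10 stroma-rich and 4 melanoma-dense spots at a median of 4 steps from the edge, with 307 CPM of the complex. The next, 41 spots at a median of 2 steps beside the cleft, held 818 CPM and included 5 muscle-rich and 32 remaining spots. Another, of 36 spots, held 259.5 CPM. In the WT section, the group of 70 spots held 50 stroma-rich spots at a median of 6 steps and 166 CPM, and the next, of 40 spots, held 27 stroma-rich spots and 118 CPM. The 3 largest groups held 39.5% of the complex UMIs on 5.54% of spots in the KO section, and 30.7% on 4.17% of spots in the WT section. All 7 members had UMIs in each of these 6 groups.

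The authors' deposited Moran's I, a score that is near 0 for a random layout and rises as neighbouring spots resemble each other, was also higher in the KO section for each member, where UMIs were more. In the authors' deposited table, Trbc2 had 0.425 in the KO and 0.238 in the WT section, and Trac 0.382 and 0.159. Cd3e had 0.34 in the KO and 0.126 in the WT section, Cd3g 0.328 and 0.0899, Cd3d 0.325 and 0.116, and Trbc1 0.229 and 0.0884. Cd247 had 0.0576 in the KO and 0.0029 in the WT section. The score depends on how many UMIs a gene has, so each was set beside genes whose UMIs lay within a factor of 5/4 of its own in the same section.

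For Trbc2, 35 of 889 such genes had a higher Moran's I in the KO section and 61 of 620 in the WT section, with medians of 0.059 and 0.048. For Cd3e, 51 of 742 genes were higher in the KO and 75 of 526 in the WT section. For Cd247, 61 of 1341 genes were higher in the KO and 493 of 1463 in the WT section.

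**Figure D5:**
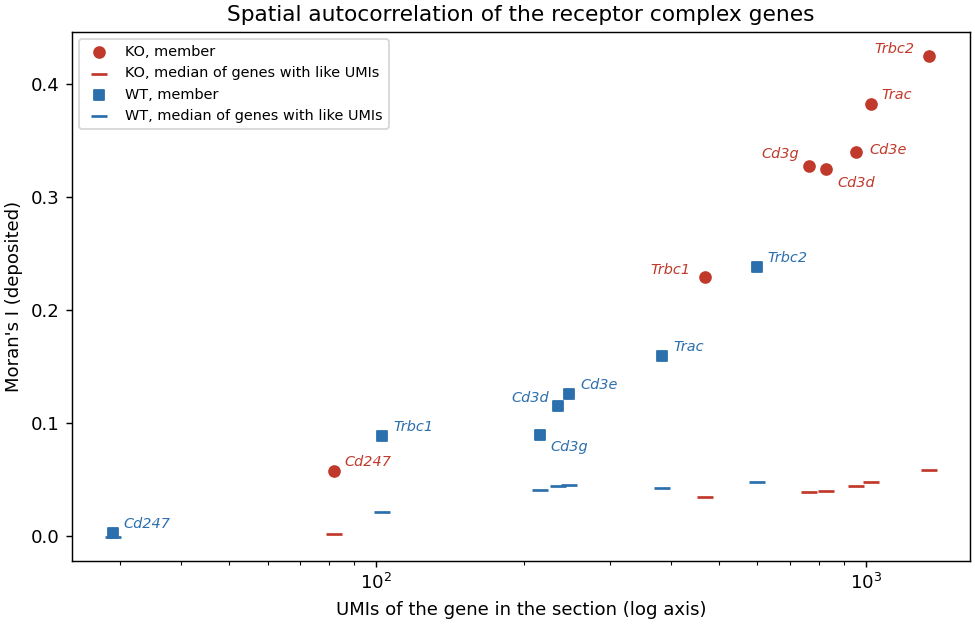
Deposited Moran's I of each receptor complex gene (vertical axis) against its UMIs in the section (log axis) for the KO and WT sections, with dashes at the median of genes of like UMI count. Members rise from 0.0029 for Cd247 in the WT section to 0.425 for Trbc2 in the KO section, and each lies above its dash.

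Genes of receptor signalling were only partly higher in the KO section. Of 21 genes that carry or regulate the signal close to the receptor, 14 had a ratio above 1. In KO tissue 9 reached 2-fold higher, against 14.7% of all genes tested. Their median log2 ratio was 0.50, against 0.15 over all genes. Themis, an adaptor of the receptor pathway, was highest at 3.71 (2.73 to 5.11). Zap70, the kinase that docks on the CD3 and zeta chains, had 332 UMIs in the KO and 197 in the WT section (1.58, 1.32 to 1.899), and Lck had 607 and 402 (1.42, 1.249 to 1.61). The 3 with most UMIs, Csk, Prkcq and Fyn, had ratios of 0.901, 1.12 and 0.893. These 3 were 1.05, 1.19 and 1.10 times as high in positive as in other KO spots, and 0.931, 0.982 and 1.08 times in WT spots. The guanine exchange factor Vav1 was lowest, at 0.576.

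Of 12 measured T cell surface genes, 7 reached 2-fold higher in KO tissue and 1 reached 2-fold lower, against 14.7% and 4.85% of all genes tested. These shares also stand beside the counts of the next lists. Cd5, a brake on receptor signals, was highest at 4.85 (3.30 to 7.32), from 165 UMIs in the KO and 32 in the WT section. Its WT count lay under 2 times the WT probe background, a median of 19 UMIs. Cd8a, a coreceptor chain of killer T cells, had 606 and 140 UMIs (4.07, 3.38 to 4.92). Cd8b1, the other chain of that coreceptor, had 323 and 117 (2.59, 2.09 to 3.23). The intervals of these CD8 chains did not overlap, and that of Cd8b1 held the 2.83 of the summed complex. Cd4, the coreceptor of helper and regulatory T cells, had 202 and 122 UMIs (1.56, 1.24 to 1.96). The lowest was Thy1, which fibroblasts also express, at 0.327. The gamma delta receptor genes were scarce: Trdc had 83 UMIs in KO and 46 in WT tissue, and Tcrg-C4 had 51 and 19. Foxp3 gave 51 UMIs in the KO and 32 in the WT section, under 2 times the background in both.

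Markers of other lymphocytes and of macrophages did not all move with the receptor genes. Of 8 NK cell genes, which could share Cd247, 7 had a ratio above 1 and 3 reached 2-fold higher. Their median log2 ratio was 0.78, and Klre1, an NK receptor, was highest at 3.09. The exception, at 2-fold lower, was Fcer1g, an Fc receptor chain of myeloid cells too, at 0.475. None of the 8 was at 0 in either section, and their sum, mostly Fcer1g, was 85.3 CPM in the KO section (quadrants 46.4 to 160) and 168 CPM in the WT section (70.0 to 438). Of 4 B cell genes, 0 reached 2-fold higher, with Cd79a at 0.421. All 7 macrophage genes had a ratio under 1, from 0.494 for Csf1r to 0.777 for C1qa, with sums of 672 CPM in the KO section (317 to 1761) and 998 CPM in the WT section (443 to 2592). Their part in the receptor gene levels was not tested.

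Inside each section, positive spots were set against other spots. The members are left out here since they define the call. In the KO section 8.41% of genes, and in the WT section 11.7%, reached 2-fold higher in positive spots. Of the T cell surface genes, 12 of 12 measured were in the KO section and 9 of 9 in the WT section. Cd8b1, the second CD8 chain, was 4.64-fold higher in positive KO spots (3.65 to 5.93) and 5.88-fold in positive WT spots (3.97 to 8.703). Cd4 was 3.63-fold higher in positive KO and 4.81-fold in positive WT spots. All 7 macrophage genes reached 2-fold higher in positive spots of both sections, as were 11 of 11 collagen stroma genes in the KO and 10 of 11 in the WT section. B cell genes were 0 of 2 and 1 of 2.

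Fewer genes reached 2-fold within melanoma-dense tissue, though the count of collagen stroma genes in the WT section was the same. Within melanoma-dense spots 1.5% of genes in the KO and 4.83% in the WT section reached 2-fold higher in positive spots. Of the T cell surface genes 4 of 12 were in the KO section and 6 of 9 in the WT section, of the macrophage genes 1 of 7 in each, and of the collagen stroma genes 3 of 11 and 10 of 11. Cd8b1 was 2.27-fold higher in positive melanoma-dense KO spots (1.60 to 3.20). In such WT spots its ratio was 2.704 (0.666 to 8.21), an interval that covers 1.

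Chemokines and receptors that guide T cells were in part higher in positive spots, with 7 of 9 genes reaching 2-fold in the KO and 6 of 9 in the WT section. Cxcl9, a CXCR3 ligand, was 3.89-fold higher in positive KO spots and 3.22-fold in positive WT spots, and 2.41-fold and 2.92-fold within melanoma-dense spots. Cxcl10, another CXCR3 ligand, was 1.89-fold higher in positive KO and 1.40-fold in positive WT spots, and Ccl5 3.01-fold and 1.67-fold. Between sections, Cxcl9 had a KO over WT ratio of 5.26, Cxcl10 0.645 and Ccr7, a receptor of naive and central memory T cells, 0.342.

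The genes most like the complex in layout were ranked by the lower of their positive over other ratios in the 2 sections, among 11548 genes with at least 100 UMIs in each. The first 8 were Car3, Cilp, Cd2, Spic, Sfrp1, Cemip, Ikzf3 and Ccn5. Cd2, a T cell adhesion receptor, was 6.09-fold higher in positive KO spots (4.86 to 7.65) and 5.27-fold in positive WT spots (3.78 to 7.33). Ikzf3, a lymphocyte transcription factor, was 5.63-fold and 4.94-fold higher. Car3, a carbonic anhydrase of muscle and fat, led with 12.6-fold in KO and 6.701-fold in WT spots. Cilp, Sfrp1, Cemip and Ccn5 are genes of matrix and connective tissue cells and Spic is a transcription factor of tissue macrophages. With unthinned calls 2 of these 8 stayed among the first 8, so the order rests on how positive spots were called.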

How the data were processed

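The deposited matrices hold UMI counts per gene and spot, not normalized; per the file headers the authors' software was Space Ranger 2.1.0. Also named, without roles, in the submitters' processing notes are featureCounts and mm10. The authors' deposited spatial table gives Moran's I, a score per gene; the values it was computed on are not given in the sources used here. Its p-value and adjusted p-value columns, and its signal column of mean normalized counts per gene, both deposited by the authors, were not used. Image files were not used.

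Counts were summed over spots and scaled to the section's total. Ratios carry exact conditional binomial intervals, levels exact Poisson intervals and shares exact binomial (Clopper-Pearson) intervals, all at 95% and for counting error only. No p-value was computed, because each genotype has 1 section, and spots are not replicates. Counts over all genes add 0.5 to each count before a ratio. Spots were thinned without replacement with a fixed seed. No cell type was assigned to a spot, no doublet caller or deconvolution was run. A fold of 2 served as the size for counts of genes, among genes with at least 50 UMIs. Positions are those of RefSeq on GRCm38, the assembly that mm10 denotes; all 7 symbols matched, and 4 had a promoter window.

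The members and gene lists were chosen with earlier results of these data known. Besides the 7 members, genes were named by rule: the 8 most like the complex, and per list the highest ratio, the lowest ratio and the 3 largest UMI sums, plus Lck, Zap70, Cd4, Cd8a, Cd8b1, Foxp3 and Csnk2b. Gh, Pnlip and the motifs were chosen after their values or sequences were seen. No motif search allowed mismatches. Alternatives were other scalings, spot sets, rims, tissue thresholds and positive calls. Ratio intervals, thinning, distances and grouping were tested on simulated data. Tools were Python 3.11.15, numpy 2.4.6, scipy 1.17.1 and edgeR 4.0.16 in R 4.3.3, the last for its TMM factors only.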

Additional observations from a re-analysis of the deposited data

Results flagged for a closer look

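Skeletal muscle genes went opposite ways with the receptor complex in the 2 sections. Their sum was 6.86 times as high in positive as in other spots of the KO section, and 0.433 times as high in the WT section. After thinning, the KO section kept 10 muscle-rich spots, all positive. The WT section kept 1, which was not positive, so its value rests on almost no muscle-rich tissue. This difference between sections was not tested, and within melanoma-dense KO spots the ratio was 0.919. The 4 Y-linked genes, which belong to no comparison made here, were detected with 1477 UMIs in KO and 0 in WT tissue. Host sex is not given by the labels, so sex and genotype cannot be told apart.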

How the results depend on the processing

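No paired analysis was possible because each genotype has 1 section. The KO over WT ratio of the summed complex, 2.83, stayed above 2 under all 11 alternatives. It was 2.44 with edgeR TMM factors and 2.42 with median-of-ratios size factors, which shift every log2 ratio by -0.22 and -0.23. It was 3.45 with equal weight per spot, 2.12 in interior and 3.12 in melanoma-dense spots. With WT levels weighted to the KO mix it was 4.79 for tissue types and 3.04 for edge distances; both weightings, and leaving out muscle-rich spots, were added after the data were seen. All 77 values of single members under these alternatives were above 1, from 1.48 for Cd247 in interior spots to 9.42 for Trbc1 weighted by tissue type, and 71 were at least 2. Under 2 were also Trac at 1.77 and Trbc2 at 1.56 in interior spots, Cd247 at 1.72 in melanoma-dense spots, and Trbc2 at 1.815 with TMM factors and 1.80 with median-of-ratios factors.

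The KO rim over interior ratio, 2.84, was 3.08 with a rim of 1 step, 3.04 without the frame as an edge and 3.21 with small holes filled. The WT ratio was 0.994 with a rim of 1 step, the cause of which was not tested. Muscle-rich over melanoma-dense in the KO section was 20.7 at a threshold of 4% and 30.5 with equal weight per spot. Stroma-rich over melanoma-dense in the KO section was 15.1 at 1%, 4.88 at 4% and 8.12 with equal weight, and in the WT section 5.96 with equal weight. The KO threshold of 4% moved its ratio most, and the cause was not tested.

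Positive spots were 19.0% of KO and 9.85% of WT spots when thinned to 5000 UMIs, 40.5% and 23.4% at 20000 UMIs, 50.04% and 27.7% unthinned, and 10.1% and 4.51% at a minimum of 2 UMIs. Neighbours of positive spots were positive in 28.4% of WT cases at 5000 UMIs, in 52.7% of KO and 41.1% of WT cases at 20000 UMIs, 66.5% and 52.3% unthinned, and 47.8% and 37.6% at 2 UMIs. The largest group held 19 WT spots at 5000 UMIs, 149 KO spots at 20000 UMIs, 783 KO and 280 WT spots unthinned, 30 WT spots at 2 UMIs and 116 KO spots with another seed. In every one of these settings the KO share and the KO neighbour share were above the WT ones. Divided by the share of positive spots, the neighbour share was instead lower in the KO section each time. This quotient was 2.16 in the KO and 2.89 in the WT section at 5000 UMIs, and 4.74 and 8.35 at 2 UMIs.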
